A study of Mus musculus with 58 samples.

Results

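The genes described here are the cytochrome P450 genes of families 1 to 4 that handle drugs, fatty acids and steroids. A gene belonged to the set if its symbol starts with Cyp1a, Cyp1b, Cyp3a, or with Cyp2 or Cyp4 followed by a letter, and if the array has a transcript cluster naming that symbol alone. The brightest cluster stood for each gene. This gave 80 genes in 22 subfamilies, among 22180 genes measured in the same way. A further 5 symbols (Cyp2c67, Cyp3a41a, Cyp3a41b, Cyp4a10 and Cyp4a32) occur only on clusters shared with other genes and have no value here.

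RNA was measured on 58 arrays, 29 of normal liver and 29 of liver tumors, from adult mice of a mixed FVB/NJ, C57BL/6 and 129/Sv background. All animals, those of the normal livers included, had received adeno-associated virus (AAV) after birth, so no untreated liver enters any comparison. The study asked whether insertion of the vector contributed to hepatocellular carcinoma. The titles name 39 animals, and 18 of them gave both tissues. A looser reading of animals, which joins titles with similar numbers, gives 35. Under it some arrays treated below as unpaired share an animal. Of the normal livers 20 were labelled male and 9 female, and of the tumors 17 male and 11 female, with 1 tumor unlabelled. Some titles carry the marks +/- (5 normal livers, 5 tumors) or -/- (4 normal livers, 5 tumors), whose gene the labels do not name, and 1 title, of normal liver 4, carries GFP. The vector, its promoter and its dose are not given per animal in the labels used here.

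Cytochrome P450 enzymes are heme proteins of the endoplasmic reticulum that insert oxygen into small molecules, with electrons passed on by a reductase and by cytochrome b5. In the liver they detoxify drugs, activate some carcinogens, and oxidise steroids, bile acids and fatty acids. Many are made in the hepatocytes around the central vein, and many are induced through receptors for foreign compounds. These are the aryl hydrocarbon receptor AHR for family 1, CAR (Nr1i3) and PXR (Nr1i2) for Cyp2b, Cyp2c and Cyp3a, and PPAR-alpha (Ppara) for Cyp4a. In mice several are set to a female or male level by growth hormone.

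All values are log2 array values, in which a difference of 1 is a doubling. Array medians lay between 6.72 and 7.15, and the precision is set by the number of arrays. Values of different genes come from different probes and are not compared with each other. A call means a Benjamini-Hochberg adjusted p under 0.05 in limma across all 22180 genes, with the animal as a random block. Close relatives in these families have near-identical sequences, so a cluster may pick up RNA of its neighbours.

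Both tissues had an array that stood apart. Tumor 9 had a mean of 7.57 over 11 measured hepatocyte genes, against 11.87 to 12.91 in the other tumors. Its mean over 7 measured B and plasma cell genes was 11.83 (6.70 to 9.56 in the others), and over 13 T and NK cell genes 9.40 (6.43 to 7.55). Normal liver 27 had a hepatocyte mean of 12.42 and a proliferation mean of 7.43, within the range of the other normal livers (12.28 to 13.03 and 7.09 to 8.24). Of the 26 members that fell by at least 1, however, normal liver 27 was below all other normal livers in 14, the most of any normal liver. Its median difference from the mean of the normal livers over these members, -2.96, was also the lowest of the normal livers, as given below. Counts of called genes are therefore given with and without these arrays. On 7 arrays Xist and the Y-linked genes went against the gender label.

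Many drug-metabolising P450 genes were lower in tumors, and a few were higher. Of the 80 genes, 40 (50%) were called lower in tumors, against 14.3% of all genes, and 9 (11.25%) were called higher, against 17.9% of all genes. The other 31 were not called. A fall of at least 1 on the log2 scale was found for 26 members (32.5%, against 0.947% of all genes), and a rise of at least 1 for Cyp2b10 and Cyp2a5 (2.5%, against 1.03%). The median change was -0.25 over the members and -0.02 over all genes.

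Among the 52 members brighter than the median gene, 35 (67.31%) were lower and 5 (9.62%) higher, with a median change of -0.71. Of all 11090 such genes 15.95% were lower and 28.03% higher, with a median change of 0.05. Among the 28 dimmer members 5 (17.86%) were lower and 4 (14.29%) higher. These shares were near those of all genes, bright and dim together (14.3% and 17.9%). Without tumor 9 and normal liver 27 there were 39 lower, 10 higher and 25 lower by at least 1. Of all genes called in that fit 55.1% were higher. The arrays of unpaired animals alone (11 per tissue, the 11 tumors from 10 animals, fitted with no block) gave 18 lower, 3 higher and 13 lower by at least 1. There 28 of the 49 calls were lost, and 66.1% of all genes called were higher. The unpaired arrays include normal liver 27 and tumors 24, 25 and 27. Over the 26 members that fell by at least 1, normal liver 27 had a median difference from the normal mean of -2.96. For tumors 24, 25 and 27 it was 0.42, 0.09 and -0.09. The part of these arrays in the lost calls was not tested.

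**Figure D1:**
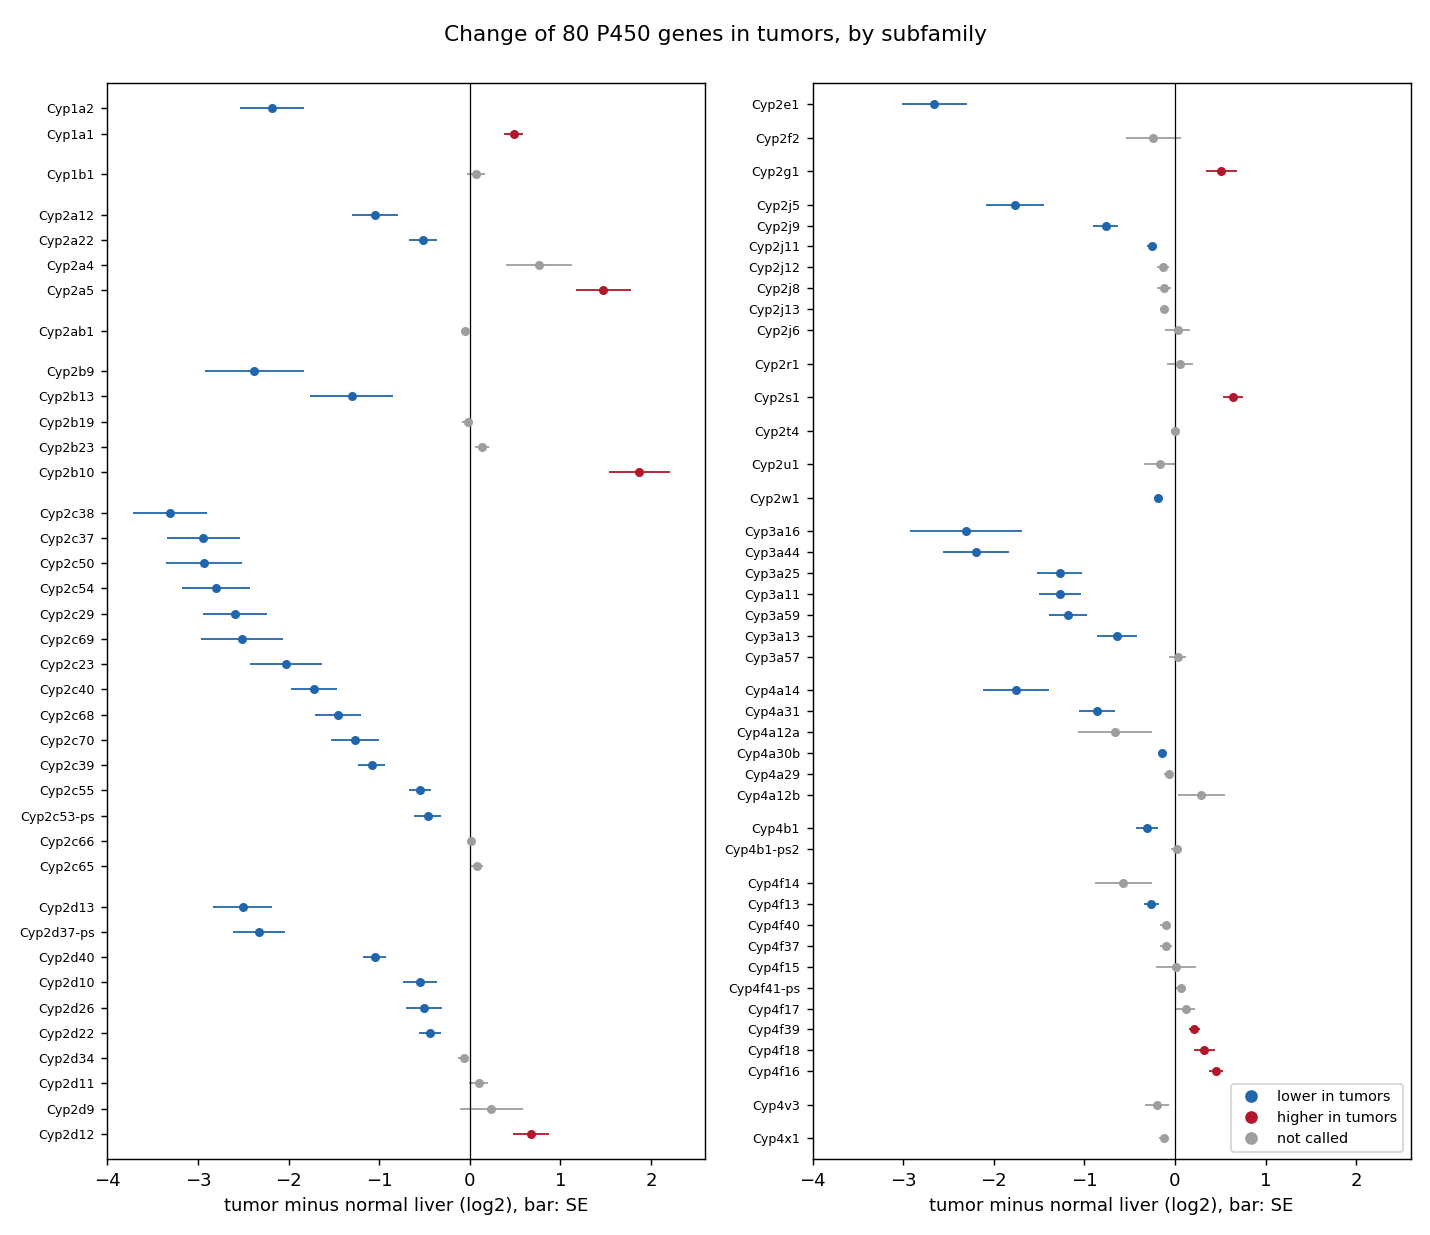
Change in tumors (horizontal axis, tumor minus normal liver, log2, with its standard error) of each of the 80 P450 genes, grouped by subfamily. Blue points are the 40 genes called lower, red points the 9 called higher and grey points the 31 not called. The Cyp2c genes spread from -3.31 to 0.08, whereas Cyp2b and Cyp2a hold genes on both sides of 0.

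The Cyp2c subfamily, which oxidises drugs and makes epoxides from linoleic and arachidonic acid, held the largest fall. Of its 15 measured genes 13 were lower and 11 of these by at least 1, and none was higher. Cyp2c38 (transcript cluster 17364392) lay between 7.70 and 13.07 in normal livers, with a median of 12.36. In tumors it lay between 5.34 and 12.75, with a median of 8.62. It fell by 3.31 (SE 0.41, limma adjusted p = 4.3e-09), the most of all members, and was lower in 17 of 18 pairs. The lowest normal value belonged to normal liver 27. Under the lowest of the other 28 normal livers, 10.08, lay 24 of the 29 tumors.

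Cyp2c37 and Cyp2c50, epoxygenases that CAR induces, fell alike. Cyp2c37 ran from 6.73 to 12.58 in normal livers (median 11.51) and from 6.14 to 12.16 in tumors (median 7.79), and fell by 2.94 (SE 0.40, adjusted p = 5e-08). Cyp2c50 ran from 6.11 to 11.97 (median 11.04) and from 5.61 to 11.31 (median 6.65), and fell by 2.93 (SE 0.42, adjusted p = 1.3e-07). Both groups overlapped over most of their range, because a few tumors kept values of normal liver and normal livers 16 and 27 were low. For Cyp2c50 normal liver 26, at 7.16, was low as well. Cyp2c54 fell by 2.80, and all 29 tumors lay under the median of the normal livers. Cyp2c29, which phenobarbital-type drugs induce, fell by 2.59 (SE 0.35, adjusted p = 4e-08). Its normal livers ran from 9.56 to 12.92 (median 12.17) and its tumors from 5.92 to 12.59 (median 9.34), with 15 tumors under every normal liver.

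The other called changes in the subfamily were -2.51 (Cyp2c69), -2.03 (Cyp2c23), -1.72 (Cyp2c40), -1.46 (Cyp2c68), -1.26 (Cyp2c70), -1.08 (Cyp2c39), -0.55 (Cyp2c55) and -0.47 (Cyp2c53-ps). Cyp2c70, the enzyme that turns chenodeoxycholic acid into the muricholic acids of mice, went from a median of 12.42 to 11.30. The pseudogene Cyp2c53-ps had a normal median of 4.52, with normal liver 8 at 8.45, and lost its call with the 18 pairs as a fixed replicate block. Cyp2c65 and Cyp2c66, genes of the gut, were not called (changes of 0.08 and 0.01), and neither passed a value of 6.75 on any array.

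In the gene order of assembly GRCm38.p6, the Cyp2c genes except Cyp2c23 stand in a run on chromosome 19. The first 4 measured genes of the run are Cyp2c55, Cyp2c65, Cyp2c66 and Cyp2c53-ps, whose changes lay between -0.55 and 0.08. The next 10, from Cyp2c29 to Cyp2c70, all fell by at least 1. The promoters of some of these genes share a short element, and its windows are shown because it was more frequent among the members than among all genes. The 250 bases before the start were found in RefSeq's table for 62 of the 80 members. The element CAAAGTCCA, a form of the binding site of the hepatocyte factor HNF4-alpha, occurred on either strand in 7 of the 62 (11.3%) and in 0.451% of the 27025 genes with a promoter in the table. It stood in 6 of 32 members that were lower, in 0 of 7 that were higher and in 1 of 23 that were not called (Cyp2c65). Below, the element is in capitals with 15 bases on each side, 5′ to 3′ on the strand of the gene, in build GRCm38.p6.
Cyp2c40 (chr19:39812836-39812874, minus strand): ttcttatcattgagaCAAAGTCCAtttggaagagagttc
Cyp2c69 (chr19:39886821-39886859, minus strand): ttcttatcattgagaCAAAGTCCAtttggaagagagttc
Cyp2c68 (chr19:39741155-39741193, minus strand): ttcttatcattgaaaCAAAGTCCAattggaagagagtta
Cyp2c65 (chr19:39060875-39060913, plus strand): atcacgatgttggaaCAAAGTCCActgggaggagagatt
Cyp2c70 (chr19:40187327-40187365, minus strand): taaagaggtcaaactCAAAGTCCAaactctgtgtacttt
Cyp3a11 (chr5:145879940-145879978, minus strand): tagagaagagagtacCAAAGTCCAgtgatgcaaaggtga
Cyp3a16 (chr5:145469799-145469837, minus strand): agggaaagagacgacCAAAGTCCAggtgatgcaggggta

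The windows of Cyp2c40 and Cyp2c69 are the same, and the promoters of this subfamily are related by descent, so the 7 matches are not independent. Cyp2c65 carries the element and was not called. In all, 14 motifs were searched on both strands. The TATA box TATAAA was in 35.5% of the members and 14.3% of all genes, and the FOXA site TGTTTAC in 11.3% and 3.54%. The nuclear receptor half-site AGGTCA was in 25.8% and 15.8%, the HNF6 site ATTGAT in 16.1% and 7.72%, and the HNF1 half-site GTTAAT in 14.5% and 7.49%. The FOXA site was in 6 of 32 lower, 0 of 7 higher and 1 of 23 not called members, the same split as CAAAGTCCA. In the same order AGGTCA was in 10, 0 and 6, and the HNF6 site in 7, 0 and 3. The TATA box was in 15, 2 and 5, and the HNF1 half-site in 5, 1 and 3. The AHR core GCGTG was in 13 of the 62 members (3, 4 and 6) and 30.9% of all genes. The variant half-site AGTTCA was in 12.9% and 13.4%. The FOXA variant TGTTTGC and the C/EBP site TTGCAAT were in 1.61% of the members each, against 4.93% and 2.23%. The C/EBP palindrome TTGCGCAA (0.185% of all genes) and the D-box TTATGTAA (0.977%) were in 0 of 62. So were the HNF1 full site (0.0111%) and the DR1 repeat (0.0407%), which contain the half-sites above. A match is a description of letters and not a measured site.

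The pair Cyp2c37 and Cyp2c50, which fell by nearly the same amount, has promoters with 88.4% identity over 242 aligned bases. Their last 120 bases before the start are given with the bases that do not match in capitals.
Cyp2c37 (chr19:39992304-39992423, plus strand, GRCm38.p6): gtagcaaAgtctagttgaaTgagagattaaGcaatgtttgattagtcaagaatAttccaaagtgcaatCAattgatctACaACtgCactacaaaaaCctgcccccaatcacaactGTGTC
Cyp2c50 (chr19:40089559-40089678, plus strand, GRCm38.p6): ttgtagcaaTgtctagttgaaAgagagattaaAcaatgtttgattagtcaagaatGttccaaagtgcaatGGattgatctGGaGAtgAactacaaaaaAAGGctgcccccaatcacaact

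Cyp2e1 (transcript cluster 17484587), the enzyme of the central-vein hepatocyte that oxidises ethanol and acetaminophen, was lower in the tumor in 18 of 18 pairs. Its normal livers ran from 9.08 to 13.42 with a median of 13.21, and its tumors from 7.39 to 13.26 with a median of 10.26. It fell by 2.66 (SE 0.35, limma adjusted p = 2.8e-08). Apart from normal liver 27, at 9.08, no normal liver was under 12.35, and 23 of 29 tumors were. The differences within pairs ran from -5.82 to -0.01 with a median of -2.96. The smallest difference was in the pair of tumor 1 and the largest in that of tumor 13.

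In family 1, the aryl hydrocarbon receptor genes, the neighbours Cyp1a2 and Cyp1a1 moved apart. Cyp1a2 (17527581), which oxidises caffeine and aromatic amines and is made around the central vein, went from 7.47 to 12.49 (median 11.998) in normal livers to 6.03 to 12.59 (median 9.27) in tumors. It fell by 2.18 (SE 0.35, adjusted p = 1.6e-06) and was lower in 17 of 18 pairs. Cyp1a1 (17517770), the most inducible gene of the family, went from 6.59 to 8.08 (median 6.92) to 6.61 to 9.56 (median 7.38). It rose by 0.48 (SE 0.11, adjusted p = 4e-04), in 16 of 18 pairs, and only 2 tumors lay above the highest normal liver. Cyp1b1, which is mostly made outside the liver, was not called (change 0.07, SE 0.10, adjusted p = 0.63), with medians of 6.81 (6.54 to 8.62) and 6.91 (6.39 to 7.85).

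The Cyp2a and Cyp2b genes lie in a run on chromosome 7 together with Cyp2s1, Cyp2g1, Cyp2f2 and Cyp2t4, and they moved in opposite directions. In gene order of GRCm38.p6, Cyp2s1 and Cyp2b10 rose, the next measured genes Cyp2b13 and Cyp2b9 fell, and Cyp2a4, Cyp2b23 and Cyp2b19 were not called. Further along, Cyp2g1 and Cyp2a5 rose, Cyp2a22 and Cyp2a12 fell, and Cyp2f2 and Cyp2t4 were not called.

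Cyp2b10 (17475360), the classical CAR and phenobarbital gene, rose most. Its normal livers ran from 5.91 to 9.66 (median 8.42) and its tumors from 4.95 to 11.72 (median 9.86). The rise was 1.87 (SE 0.33, adjusted p = 1.1e-05), in 17 of 18 pairs, and 19 tumors were above every normal liver. The normal livers had no value between 7.31 and 8.36, with 13 below and 16 above that gap. The lowest tumor was tumor 9, and without tumor 9 and normal liver 27 the rise was 2.10.

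Cyp2b9 (17475385), a gene higher in females in many strains, ran from 5.76 to 13.26 in normal livers (median 11.71) and from 5.49 to 12.67 in tumors (median 8.33). It fell by 2.38 (SE 0.55, adjusted p = 4.7e-04) and in 16 of 18 pairs. Tumors had no value between 10.18 and 11.65, with 21 below and 8 above. Cyp2b13, its nearest copy, ran from 5.89 to 12.53 (median 8.04) and from 5.63 to 10.96 (median 6.51), and fell by 1.30 (SE 0.46, adjusted p = 0.023), in 14 of 18 pairs. Its call was lost without the arrays that go against the gender label (adjusted p = 0.102). Cyp2b10 was above its normal mean in 26 tumors, and in 18 of these Cyp2b9 was below its own. Cyp2b19 and Cyp2b23 were not called (changes of -0.02 and 0.14).

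The promoters of Cyp2b9 and Cyp2b13 have 99.2% identity over 250 bases, whereas those of Cyp2b10 and Cyp2b9 have 78.2% over 238 aligned bases. The last 120 bases of the latter pair are shown because the genes moved oppositely, with unmatched bases in capitals.
Cyp2b10 (chr7:25897538-25897657, plus strand, GRCm38.p6): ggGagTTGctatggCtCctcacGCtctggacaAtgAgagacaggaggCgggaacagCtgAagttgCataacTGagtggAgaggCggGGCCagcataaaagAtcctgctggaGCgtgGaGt
Cyp2b9 (chr7:26173289-26173408, plus strand, GRCm38.p6): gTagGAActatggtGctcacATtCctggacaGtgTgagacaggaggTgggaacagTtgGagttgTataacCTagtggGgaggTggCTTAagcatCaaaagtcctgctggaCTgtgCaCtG

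Cyp2a5 (17475469), which hydroxylates coumarin and nicotine, rose by 1.48 (SE 0.31, adjusted p = 1.2e-04). Its normal livers ran from 6.09 to 11.28 (median 10.05) and its tumors from 6.29 to 12.28 (median 11.52), and 19 tumors were above every normal liver. It was higher in 17 of 18 pairs. The lowest tumors were tumor 9 at 6.29 and tumor 20 at 6.86, and the lowest normal liver was number 19 at 6.09. Normal liver 19 and tumor 20, which come from the same animal, also had the highest neutrophil marker means of their groups. These were 10.67 and 10.53, against medians of 6.87 and 6.90. The part of neutrophils in these Cyp2a5 values was not tested. For Cyp2a4, which hydroxylates testosterone, the change was 0.76 (SE 0.37, limma adjusted p = 0.1), with 17 of 18 pairs higher. Without tumor 9 and normal liver 27 its change was 1.05 (SE 0.29, limma adjusted p = 0.0032), and without tumor 9 alone 1.02 (limma adjusted p = 0.0039). The lack of a call over all arrays thus rests on tumor 9, at 5.16. Cyp2a4 and Cyp2a5 have promoters with 98.4% identity, shown over their last 120 bases with unmatched bases in capitals, and their transcripts are so alike that the array may not keep them apart.
Cyp2a5 (chr7:26835219-26835338, plus strand, GRCm38.p6): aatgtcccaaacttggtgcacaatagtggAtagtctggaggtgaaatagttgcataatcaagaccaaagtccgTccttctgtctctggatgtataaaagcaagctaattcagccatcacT
Cyp2a4 (chr7:26307072-26307191, plus strand, GRCm38.p6): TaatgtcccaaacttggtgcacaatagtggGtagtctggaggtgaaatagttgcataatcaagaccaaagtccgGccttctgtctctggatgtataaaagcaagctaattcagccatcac

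Cyp2a12 (17475487), a testosterone and bile acid hydroxylase, ran from 11.23 to 13.05 in normal livers (median 12.75) and from 6.10 to 13.08 in tumors (median 11.97). It fell by 1.04 (SE 0.26, adjusted p = 0.0011), in 17 of 18 pairs. Cyp2a22 fell by 0.51 (SE 0.15, adjusted p = 0.0079), from a median of 9.55 (7.77 to 11.13) to 9.05 (8.18 to 10.27). In 21 tumors Cyp2a5 was above its normal mean while Cyp2a12 was below its own.

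Cyp2f2 (17475498), which activates naphthalene and is made by the hepatocytes at the portal side, was not called. Its normal livers ran from 7.37 to 13.11 (median 12.12) and its tumors from 7.31 to 12.81 (median 11.83), a change of -0.24 (SE 0.30, adjusted p = 0.58), and the groups overlapped throughout. The 7 of 8 genes on a list of central-vein P450s that were called lower changed by -1.27 (Cyp3a11) to -2.94 (Cyp2c37), and the eighth, Cyp2a5, rose. The difference between zones was not tested.

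Cyp2s1 (17488057), mostly made outside the liver, rose by 0.64 (SE 0.11, adjusted p = 7e-06). It ran from 6.80 to 7.75 in normal livers (median 7.34) and from 7.04 to 9.12 in tumors (median 8.11), and 16 tumors were above every normal liver. Cyp2g1 (17475458), known from the olfactory lining, rose by 0.51 (SE 0.17, adjusted p = 0.015), from a median of 7.06 (5.56 to 7.90) to 7.54 (6.31 to 9.47). For it 9 tumors were above the normal range. Cyp2t4 was not called (change 0.00, SE 0.04, adjusted p = 0.99), with medians of 5.21 (4.95 to 5.51) and 5.27 (4.78 to 5.59).

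**Figure D2:**
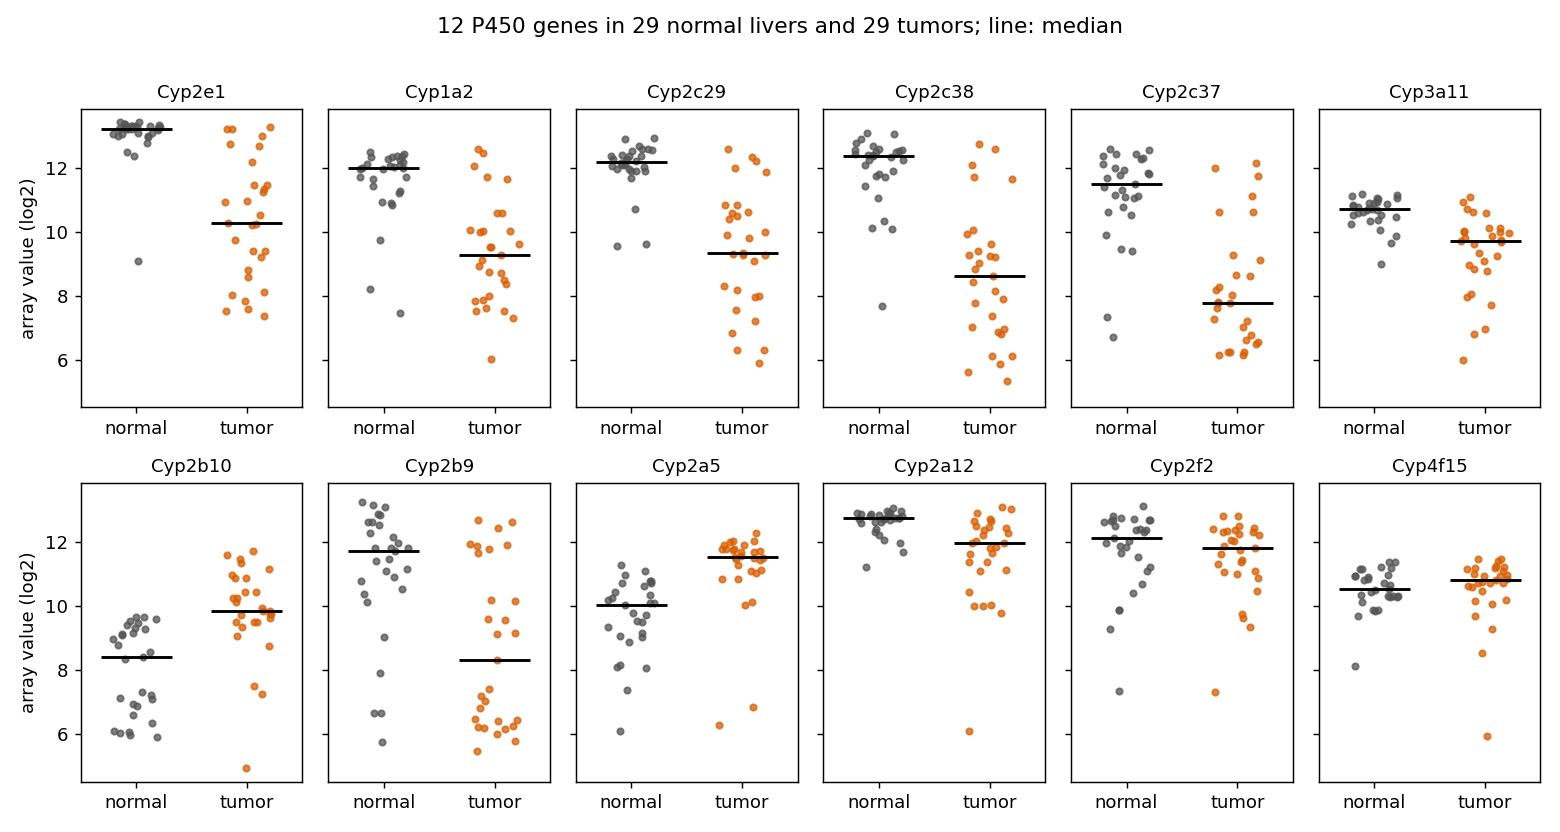
Array values (vertical axis, log2) of 12 P450 genes in 29 normal livers (grey) and 29 tumors (orange), 1 point per array, with the median as a line. Cyp2e1 is tight in normal livers (SD 0.79) and wide in tumors (SD 1.90), and Cyp2b10 and Cyp2a5 each have 19 tumors above every normal liver.

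The Cyp2d genes, relatives of human CYP2D6, fell in 6 of 10 cases and rose in 1. Cyp2d13 (17319674) ran from 7.09 to 12.91 in normal livers (median 11.87) and from 6.29 to 12.14 in tumors (median 8.94), and fell by 2.51 (SE 0.33, adjusted p = 1.7e-08), in 17 of 18 pairs. The pseudogene Cyp2d37-ps beside it fell by 2.33 (SE 0.29, adjusted p = 4.4e-09), from a median of 11.24 (7.29 to 12.21) to 8.33 (6.99 to 11.05). Cyp2d40 fell by 1.05 (SE 0.13, adjusted p = 2.3e-09), from a median of 9.15 (7.73 to 10.07) to 7.93 (7.39 to 8.98). Cyp2d40 was lower in 18 of 18 pairs, and all 29 tumors were under its normal median.

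Cyp2d10, Cyp2d26 and Cyp2d22 fell by 0.55, 0.51 and 0.43. Without tumor 9 and normal liver 27 the changes of Cyp2d10 and Cyp2d26 were -0.36 and -0.32. With the 18 pairs as a fixed replicate block these 3 were no longer called. Cyp2d12 (17313599) rose by 0.67 (SE 0.20, adjusted p = 0.0059), from a median of 4.66 (3.96 to 6.43) to 4.94 (3.99 to 8.40), and 6 tumors were above the normal range. The rise was seen in 12 of 18 pairs, and with the fixed replicate block its adjusted p was 0.0727. Cyp2d9, Cyp2d11 and Cyp2d34 were not called (changes from -0.07 to 0.24).

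Of the 7 Cyp3a genes, which metabolise the widest range of drugs, 6 fell and 5 of these by at least 1. Cyp3a16 (17455111), a gene of the newborn and of females, showed the widest normal range of all members. It ran from 3.88 to 11.61 in normal livers (median 6.62) and from 3.79 to 11.29 in tumors (median 4.43), and fell by 2.31 (SE 0.61, adjusted p = 0.0025), in 13 of 18 pairs. Normal livers had no value between 6.62 and 8.33, with 15 below and 14 above. Of the tumors only tumor 1, at 11.29, exceeded 8.87. Cyp3a44 (17455159), also higher in females, fell by 2.20 (SE 0.37, adjusted p = 3.2e-06), from a median of 9.07 (6.53 to 12.12) to 6.96 (5.08 to 10.91). Cyp3a25 fell by 1.27 (SE 0.25, adjusted p = 5.2e-05), from a median of 8.89 (6.86 to 10.08) to 7.67 (5.05 to 10.36).

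Cyp3a11, the main PXR-induced gene of adult mouse liver, also fell by 1.27, from a median of 10.73 (9.01 to 11.17) to 9.73 (6.00 to 11.09), and 13 tumors were under all normal livers other than number 27. Cyp3a59 and Cyp3a13 fell by 1.18 and 0.64, the latter not called with the fixed replicate block. Cyp3a57 was not called at a change of 0.03.

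Of the 6 Cyp4a genes, fatty acid omega-hydroxylases, 3 were lower. Cyp4a14 (17428457), which PPAR-alpha and fasting induce, ran from 6.15 to 13.21 in normal livers (median 12.56) and from 6.12 to 13.18 in tumors (median 10.92). It fell by 1.75 (SE 0.37, adjusted p = 1.3e-04) in 16 of 18 pairs. The next lowest normal liver after normal liver 19, at 6.15, was at 10.998. Cyp4a31 fell by 0.86 (SE 0.20, adjusted p = 4.6e-04), from a median of 11.14 (9.73 to 12.43) to 10.56 (8.07 to 11.99). Cyp4a30b, near the bottom of the array, fell by 0.14 (SE 0.05, adjusted p = 0.013), from a median of 4.83 (4.58 to 5.45) to 4.71 (4.55 to 5.20). The male-type genes Cyp4a12a and Cyp4a12b were not called (changes of -0.66 and 0.29), nor was Cyp4a29.

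The Cyp4f genes, which inactivate leukotriene B4 and oxidise long-chain fatty acids, were not called in 6 of 10 cases, while 3 rose and 1 fell. Cyp4f16 (17335966) rose by 0.45 (SE 0.08, adjusted p = 3.6e-06), from a median of 7.17 (6.80 to 7.73) to 7.57 (6.96 to 8.54), in 14 of 18 pairs. Cyp4f18 (17510462), a gene of neutrophils, rose by 0.32 (SE 0.12, adjusted p = 0.028), from a median of 7.45 (6.92 to 8.40) to 7.69 (7.14 to 9.54). Its highest value was that of tumor 9. None of 12 neutrophil marker genes was called, beside 14.3% lower and 17.9% higher over all genes. Their mean ran from 6.42 to 10.67 in normal livers and from 6.45 to 10.53 in tumors. The part of neutrophils in the rise was not tested.

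Cyp4f39, which makes skin acylceramides, rose by 0.21 (SE 0.06, adjusted p = 0.0073), from a median of 6.55 (6.24 to 6.99) to 6.70 (6.23 to 7.54). Cyp4f13 fell by 0.26 (SE 0.08, adjusted p = 0.0098), from a median of 10.34 (9.71 to 10.70) to 10.07 (9.03 to 10.63). Cyp4f18, Cyp4f39 and Cyp4f13 lost their calls with the fixed replicate block (adjusted p = 0.0829, 0.142 and 0.138). Cyp4f14 and Cyp4f15 were not called (-0.57, SE 0.31, and 0.01, SE 0.22).

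Of the 7 Cyp2j genes, arachidonic acid epoxygenases, 3 were lower. Cyp2j5 (17427414) ran from 8.01 to 12.42 in normal livers (median 11.92) and from 5.55 to 12.19 in tumors (median 10.38), and fell by 1.77 (SE 0.32, adjusted p = 1.4e-05), in 17 of 18 pairs. Cyp2j9 fell by 0.77 (SE 0.14, adjusted p = 2.1e-05), from a median of 8.30 (6.88 to 9.65) to 7.49 (6.65 to 8.40), and Cyp2j11 by 0.25 (SE 0.06, adjusted p = 3.5e-04), from 6.62 (6.13 to 7.04) to 6.33 (5.91 to 6.83). The other 4 had changes between -0.13 and 0.03.

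The subfamilies not yet described have 1 or 2 measured genes each. Among these genes Cyp2w1 fell by 0.19 (SE 0.05, adjusted p = 0.0015), from a median of 7.44 (7.17 to 7.80) to 7.25 (6.86 to 7.71). Cyp4b1, known from the lung, fell by 0.31 (SE 0.12, adjusted p = 0.042), from a median of 9.18 (8.50 to 9.80) to 8.73 (7.54 to 9.75). It lost its call without tumor 9 and normal liver 27 (adjusted p = 0.075) and with the fixed replicate block (adjusted p = 0.0977). None of the other 6 was called. Cyp2r1, a vitamin D 25-hydroxylase, had a median of 7.84 (6.59 to 8.81) in normal livers and 7.79 (6.54 to 9.32) in tumors, a change of 0.05 (SE 0.14, adjusted p = 0.81). Cyp2u1 had medians of 8.19 (7.25 to 10.26) and 7.96 (7.09 to 9.59), with a change of -0.17 (SE 0.17, adjusted p = 0.48). Cyp4v3, whose human counterpart is mutated in a retinal dystrophy, had medians of 11.17 (10.13 to 11.75) and 10.98 (9.25 to 11.79), with a change of -0.20 (SE 0.14, adjusted p = 0.27). The groups overlapped over nearly their whole range in these 3 genes.

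Cyp4x1 had medians of 7.31 (6.89 to 7.5997) and 7.19 (6.59 to 8.05), with a change of -0.12 (SE 0.06, adjusted p = 0.096). Cyp2ab1 had medians of 5.73 (5.50 to 6.14) and 5.78 (5.33 to 6.12), with a change of -0.05 (SE 0.05, adjusted p = 0.44). The pseudogene Cyp4b1-ps2 had a value of 0.02 (SE 0.06) for the same difference.

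The spread between tumors was compared with that between normal livers. The SD was larger in tumors for 55 of 80 members, with a median ratio of 1.19, beside 67.4% of all genes and their median ratio of 1.12. A Levene-type limma fit, on each array's absolute deviation from its group's median, called 4 members (5% of 80) wider in tumors, against 1.04% of all genes. These were Cyp2e1 (SD 1.90 against 0.79, adjusted p = 0.0018), Cyp2s1 (0.61 against 0.21, adjusted p = 0.002), Cyp2c29 (1.91 against 0.79, adjusted p = 0.0095) and Cyp2j5 (1.66 against 0.84, adjusted p = 0.038). The call of Cyp2j5 was lost with labelled sex as a covariate and without the arrays that go against the gender label. It was also lost in the 18 pairs and in the arrays of unpaired animals. Cyp3a16 was called narrower (1.90 against 3.05, adjusted p = 0.0091), against 0.0496% of all genes. This call was lost with the 18 pairs as a fixed replicate block (adjusted p = 0.0537), without the arrays that go against the gender label (adjusted p = 0.114) and in the arrays of unpaired animals. The tumor values of Cyp3a16 were near the bottom of the array (median 4.43, lowest 3.79), which may limit their spread. That was not tested.

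The number called wider depended on single arrays. Without normal liver 27 it was 7, with Cyp2a12, Cyp2c38 and Cyp3a11 added, and without tumor 9 as well it was 8, with Cyp2c70. With the 18 pairs as a fixed replicate block it was 1, Cyp2e1. Cyp2d10, not called, had a ratio of 3.10, with tumor 9 at 5.37 and the next tumor at 10.22. In simulated data of the same design, the spread fit recovered 5% of genes at 1.5 times the SD. At 2 times it recovered 35%, and at 3 times 89%. Members that were not called may therefore still differ in spread.

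**Figure D3:**
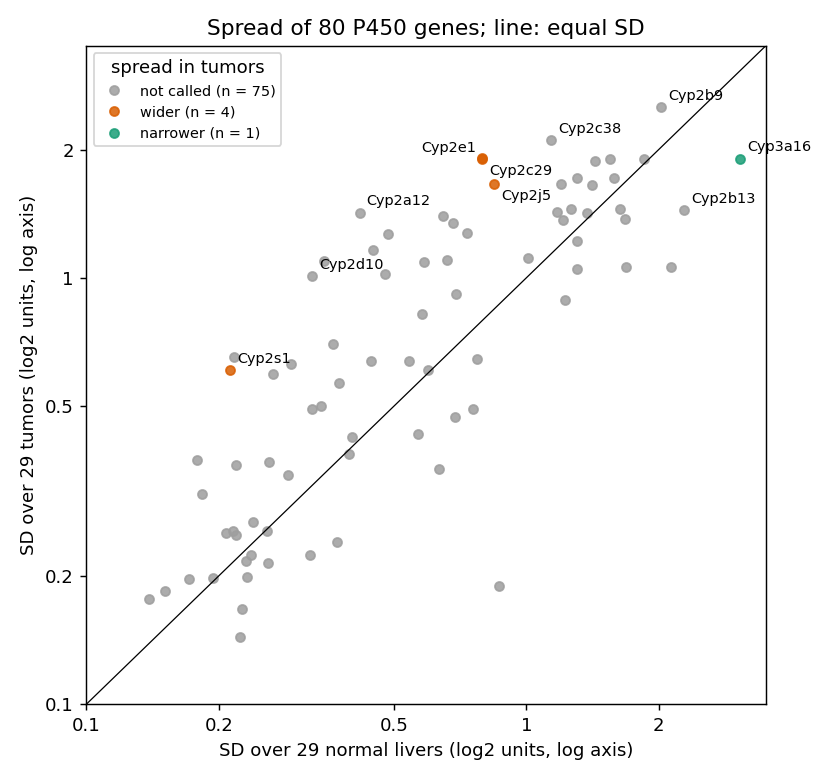
SD over 29 tumors (vertical axis) against SD over 29 normal livers (horizontal axis) for each of the 80 P450 genes, in log2 units on log axes. Points above the line, 55 of 80, vary more in tumors. Orange marks the 4 genes called wider and green Cyp3a16, called narrower.

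At least 10 tumors lay under the lowest normal liver for 8 members, against 2.06% of all genes, and at least 10 lay over the highest normal liver for 4 members, against 4.38%. Normal liver 27 sets the lowest normal value of several genes and so lowers the first count. Over the 26 members that fell by at least 1, each array was compared with the lowest of the normal livers. Tumors were under it in 0 to 24 of the 26 genes, with a median of 4. For 6 tumors (1, 14, 19, 24, 25 and 27) it was 0, and for 5 tumors at least 13. The median difference of a tumor from the mean of the normal livers ran from -4.66 (tumor 9) to 0.52 (tumor 1). Next after tumor 9 came tumor 26 at -3.52 and tumor 23 at -3.46.

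Among normal livers, each set against the other 28, 25 were under the lowest in 0 genes. Normal liver 27 was under in 14 and had a median difference of -2.96, and 6 tumors lay further below. Normal liver 16 was under in 7 and normal liver 19 in 4. By the median difference, tumors and normal livers thus overlapped at both ends. The counts of tumors and of normal livers use different floors and are not compared with each other. The 26 genes were chosen for their mean difference between the same groups, so the difference of the groups is no finding here, only the spread within each.

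Each subfamily was also averaged within each array over its falling members. The mean difference over the 13 falling Cyp2c genes ran from -3.86 to 0.42 between tumors, with 24 tumors under -1. For the 6 Cyp3a genes it ran from -4.19 to 1.502, with 22 tumors under -1, and for the 6 Cyp2d genes from -4.23 to 0.11, with 20 under -1. For the 3 Cyp4a and the 3 Cyp2j genes 12 tumors each were under -1. Of the normal livers 4 were under -1 for Cyp2c, 3 for Cyp3a, 2 for Cyp2d and 1 each for Cyp4a and Cyp2j. These genes too were chosen for their fall, so only the spread within each tissue is described. Tumor 9 was lowest in each of these 5 subfamilies. Tumor 1 was highest in all but Cyp2c, where tumor 24 was.

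**Figure D4:**
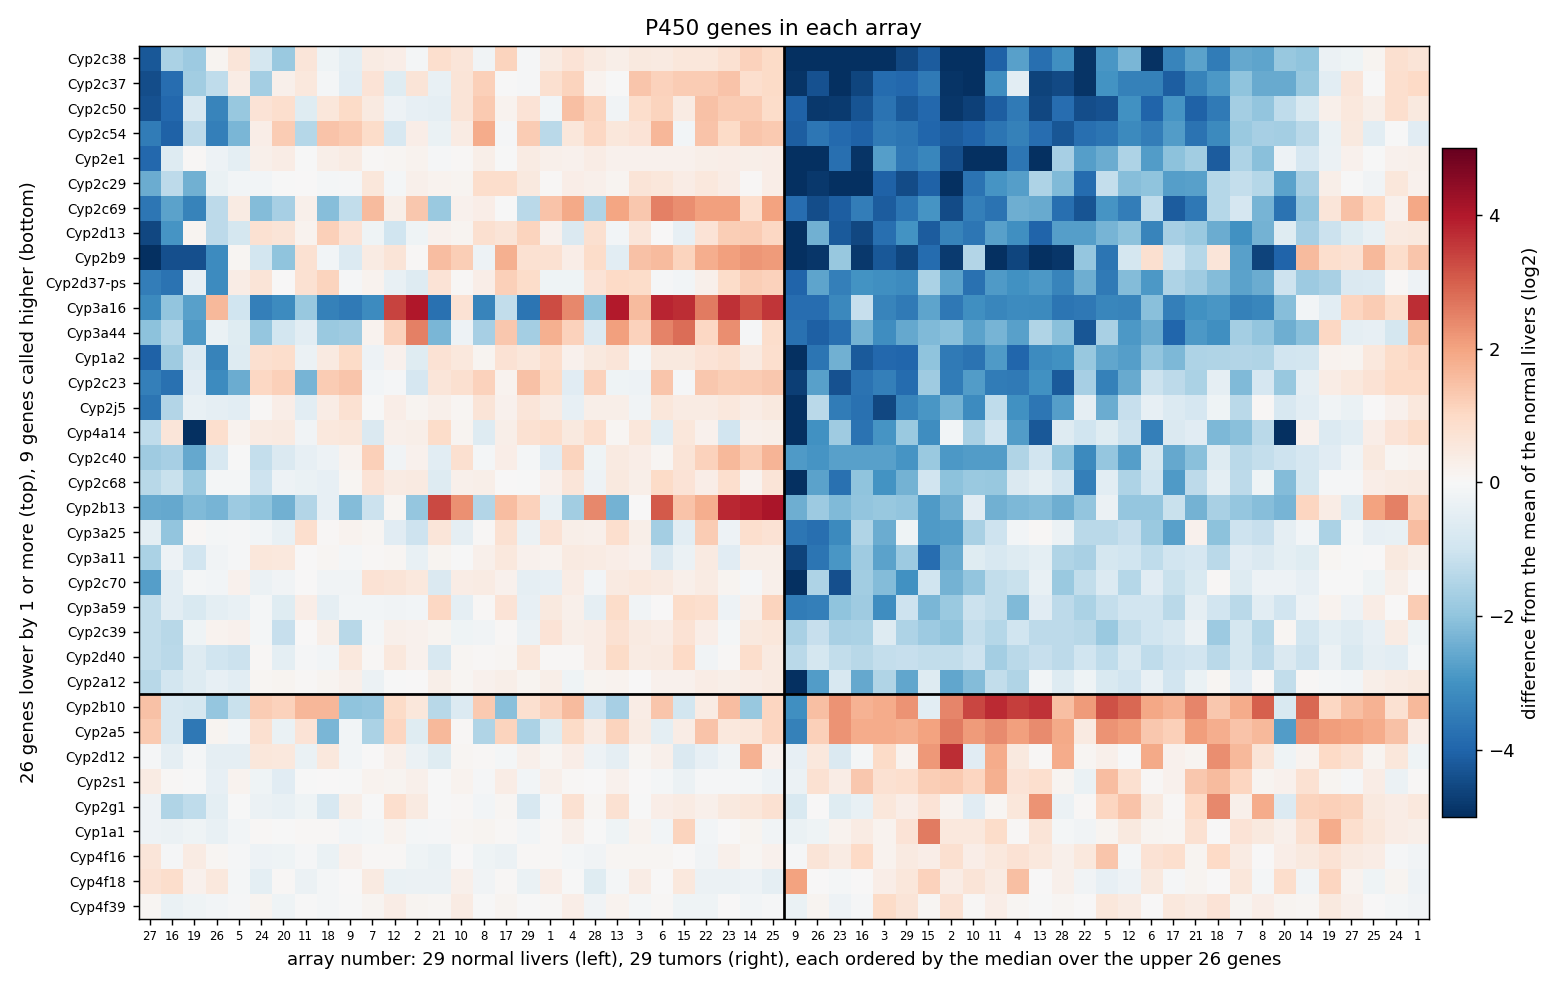
Difference of each array from the mean of the normal livers (colour, log2, blue lower and red higher) for the 26 P450 genes that fell by at least 1 (top) and the 9 called higher (bottom). Normal livers are on the left and tumors on the right, each ordered by the median over the upper 26 genes. Normal liver 27 at the far left has the colours of a tumor, and tumors 1, 24, 25 and 27 at the far right those of normal liver.

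Of the receptors and factors that control these genes, 32 of 34 on the list were measured, and 15 were lower and 1 higher, beside 14.3% and 17.9% of all genes, with a median change of -0.22. Nr1i3, which encodes CAR, fell by 2.78 (SE 0.28, adjusted p = 1.3e-11). It ran from 8.09 to 12.64 in normal livers (median 11.38) and from 6.80 to 11.56 in tumors (median 8.23), and the lowest normal value was again that of normal liver 27. The clock-controlled factor Hlf fell by 1.07 (SE 0.13, adjusted p = 3.2e-09), from a median of 9.33 (7.73 to 10.01) to 8.05 (7.39 to 9.54). The pioneer factor Foxa1 fell by 1.02 (SE 0.13, adjusted p = 6.7e-09), from 8.83 (7.52 to 9.30) to 7.61 (6.33 to 8.71), and all 29 tumors were under its normal median. Ahr fell by 0.78 (SE 0.13, adjusted p = 2.3e-06), from a median of 9.87 (8.56 to 10.40) to 9.17 (7.94 to 10.30). The coactivator gene Ppargc1a, the gene on the list that rose, rose by 2.04 (SE 0.24, adjusted p = 2e-09), from a median of 8.46 (7.23 to 11.31) to 10.95 (6.76 to 11.63). Nr1i2, which encodes PXR, was not called (change -0.12, SE 0.19, adjusted p = 0.67), with medians of 10.62 (9.57 to 11.42) and 10.56 (5.88 to 11.31). Nor was Ppara (change -0.23, SE 0.20, adjusted p = 0.41), with medians of 10.02 (8.12 to 10.75) and 9.80 (5.71 to 10.55).

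Of the genes that supply electrons and heme, 13 of 15 were measured, and 5 were lower and none higher (14.3% and 17.9% of all genes), with a median change of -0.20. The heme synthesis gene Cpox fell by 1.22 (SE 0.14, adjusted p = 1.3e-09), from a median of 10.34 (8.68 to 11.05) to 9.10 (7.63 to 10.73). Alad fell by 0.82 (SE 0.13, adjusted p = 2e-06), from 11.39 (10.41 to 12.06) to 10.44 (9.10 to 11.68), and 14 tumors were under every normal liver. Urod fell by 0.43 (SE 0.09, adjusted p = 9.5e-05), from 10.75 (10.10 to 11.29) to 10.29 (9.497 to 11.07). Cyb5a, cytochrome b5, fell by 0.29 and Fech by 0.27. Alas1, the first and regulated enzyme of heme synthesis, was not called (change 0.22, SE 0.13). Por, the reductase of all microsomal P450 enzymes, is not analysed here.

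By class of inducer, of 10 genes listed as induced through CAR or PXR 9 were lower and 1 was higher (Cyp2b10), with a median change of -1.84. Of 3 AHR genes 1 was lower and 1 higher, and both measured PPAR-alpha genes were lower. Of 8 measured genes listed as female-biased 7 were lower (median change -1.97), and of 4 male-biased genes none was called (median change 0.04). Over all genes 14.3% were lower and 17.9% higher, with a median change of -0.02. These lists overlap with each other and with the subfamilies above.

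Cell makeup was followed through marker genes, whose counts stand beside 14.3% lower and 17.9% higher over all genes. Of 11 hepatocyte genes 4 were lower, with list means of 12.28 to 13.03 in normal livers and 7.57 to 12.91 in tumors, 11.87 or more without tumor 9. Of 15 endothelial genes 8 were lower and 2 higher (means of 9.02 to 10.20 and 8.05 to 10.14). Of 15 macrophage genes 5 were lower and 4 higher (8.26 to 11.02 and 8.12 to 10.08), of 19 stellate and fibroblast genes 6 and 5 (8.18 to 10.13 and 7.496 to 9.88), and of 7 bile duct genes 4 and 0 (6.47 to 8.70 and 6.38 to 7.04). None of the B and plasma cell genes was called, and 2 of 13 T and NK cell genes were higher. All 19 measured proliferation genes were higher (median change 0.69). Their part in the P450 changes was not tested, and in tissue arrays fewer cells of a type and less RNA per cell cannot be told apart.

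How the members varied together was described in 24 relations, 12 in each tissue, with p from 100000 permutations adjusted over all 24. The 2 tumors of one animal were averaged, which gives n = 28, and normal livers were kept apart (n = 29). The smallest p these permutations can give is 1e-05. In tumors 9 of 12 relations had an adjusted permutation p under 0.05 for Pearson's r, and in normal livers 9 of 12.

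Across tumors, Cyp2e1 followed Nr1i3 most closely, with r = 0.838 and rho = 0.811 (adjusted permutation p = 8e-05 and 1.2e-04). Without the 2 tumors farthest from the median of Nr1i3 r was 0.814, and without the 4 of highest Nr1i3 it was 0.754. Cyp1a2 gave r = 0.810 and rho = 0.641 with Nr1i3 (adjusted permutation p = 8e-05 and 0.00116), and 0.722 and 0.581 in those subsets. For Cyp2c37 (r = 0.761, rho = 0.567), Cyp2c29 (r = 0.623, rho = 0.467) and Cyp3a11 (r = 0.594, rho = 0.573) the adjusted permutation p of r was at most 0.00141 and of rho at most 0.0221. Without the 4 tumors of highest Nr1i3 their r was between 0.319 and 0.389, with an adjusted permutation p between 0.0907 and 0.169, so these relations rest in part on those 4 tumors. Cyp2b10, the CAR gene that rose, showed r = -0.139 and rho = -0.333 (adjusted permutation p = 0.528 and 0.118), and Cyp2f2 r = 0.277 and rho = 0.252 (0.18 and 0.223).

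**Figure D5:**
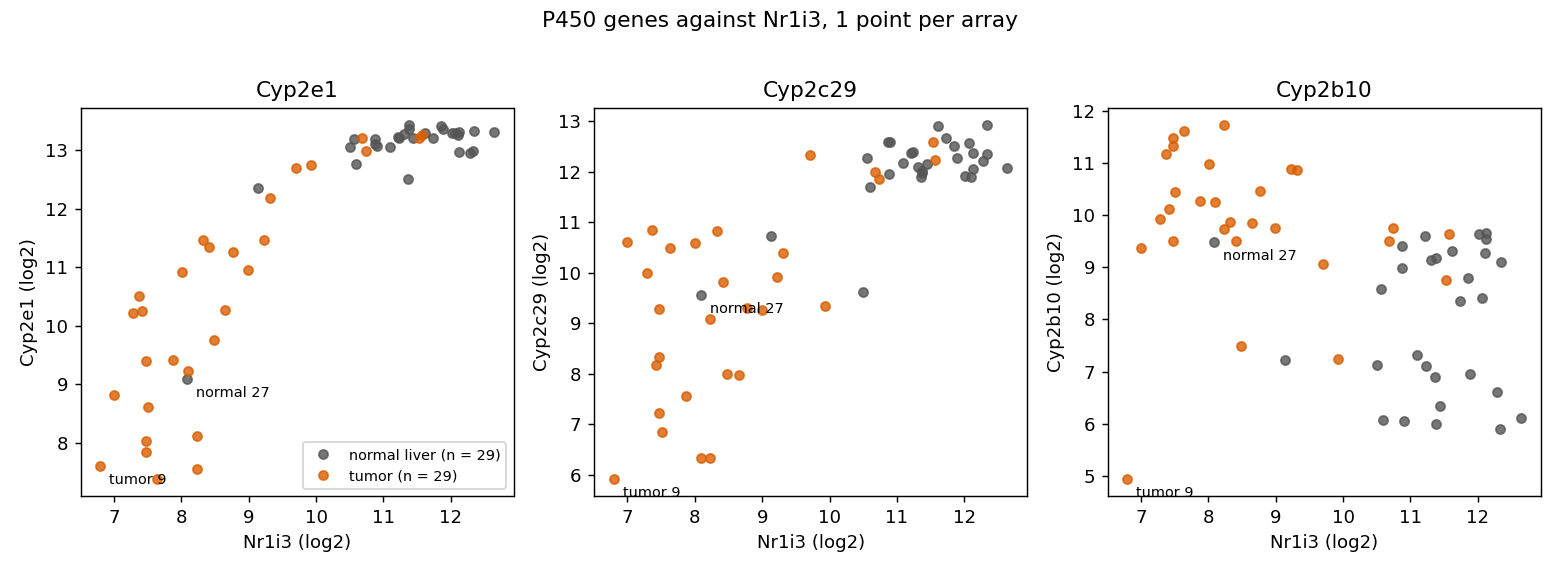
Cyp2e1, Cyp2c29 and Cyp2b10 (vertical axes, log2) against Nr1i3 (horizontal axis, log2), 1 point per array, normal livers in grey and tumors in orange. Over the tumors, with both tumors of one animal averaged, r is 0.838 for Cyp2e1, 0.623 for Cyp2c29 and -0.139 for Cyp2b10. Tumor 9 and normal liver 27 are named.

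In normal livers r between Nr1i3 and Cyp2e1 was 0.746 (rho = 0.479, adjusted permutation p = 4.4e-04 and 0.0176), but 0.278 without the 2 livers farthest from the median (adjusted permutation p = 0.215), so that it rests on those livers. The same holds for Cyp2c37 (0.705, then 0.203). Nr1i3 with Cyp2f2 gave r = 0.715 and rho = 0.585 in normal livers (adjusted permutation p = 3.12e-04 and 0.00256), and r was 0.558 without those 2. Whether this differs from the tumors was not tested.

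Cyp2b10 and Cyp2a5 gave r = 0.780 and rho = 0.606 across tumors (adjusted permutation p = 2.4e-04 and 0.00228). Without the 2 tumors farthest from the median of Cyp2b10 r was 0.370 (adjusted permutation p = 0.095), so the size of r rests on those 2. In normal livers r was -0.023 and rho -0.044 (adjusted permutation p = 0.909 and 0.855). Ppara and Cyp4a14 gave r = 0.664 and rho = 0.458 across tumors (adjusted permutation p = 4.4e-04 and 0.0245), and r = 0.347 without 2 tumors (adjusted permutation p = 0.117). Ahr and Cyp1a2 gave r = 0.713 and rho = 0.737 (adjusted permutation p = 2.4e-04 and 1.6e-04), and 0.662 without 2. Cyp2e1 and Cyp1a2, both of the central vein, gave r = 0.829 and rho = 0.789 (adjusted permutation p = 8e-05 and 1.2e-04), and 0.822 without 2. Cyp2e1 and Cyp2f2 gave r = 0.330 and rho = 0.298 (adjusted permutation p = 0.107 and 0.155). Arrays share their hybridization and tissue makeup, so such relations carry both.

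Several members are known for a female or male level in mouse liver, and sex was tested in 4 groups of tissue and labelled sex. By the labels limma called 0 of the 80 members in normal liver (0.0496% of all genes), 0 in tumors (0.0225%) and 0 for a difference of the tumor change between sexes (0% of all genes). At an unadjusted p under 0.05 the counts were 6, 2 and 3, against 3.69%, 9.96% and 4.53% of all genes. With the sex read from Xist and the Y-linked genes, 1 member was called in normal liver (0.126% of all genes), 0 in tumors (0.0631%) and 0 for the difference (0%).

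That gene was Cyp2d9, a steroid 16-alpha-hydroxylase of male mice. In normal livers read as female it ran from 5.86 to 10.48 (median 7.80, n = 10), and in those read as male from 7.98 to 12.02 (median 10.17, n = 19), a difference of -2.46 (SE 0.44, limma adjusted p = 7.8e-04). By the labels the difference was -1.96 (SE 0.50, adjusted p = 0.26). In tumors the medians were 9.86 (7.39 to 10.31, n = 12) and 10.22 (5.58 to 10.90, n = 17), a difference of -0.45 (SE 0.43, adjusted p = 0.89). The difference between tissues had an adjusted p of 0.91, so no change of the sex difference was shown.

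The female-type genes did not pass the test. Cyp3a16 had a female minus male difference of 3.13 (SE 0.86, adjusted p = 0.27) in normal livers by read sex and of 1.86 (SE 0.83, adjusted p = 0.66) in tumors. For Cyp2b13 these were 2.11 (SE 0.66, adjusted p = 0.59) and 1.06 (SE 0.64, adjusted p = 0.78), and for Cyp4a12a, a male-type gene, -2.31 (SE 0.57, adjusted p = 0.11) and -0.24 (SE 0.55, adjusted p = 0.96). Within labelled males 38 members were lower in tumors (14.5% of all genes) and within labelled females 9 (0.685%). By read sex these were 38 (13.2%) and 14 (1.55%). There were fewer female arrays, and no member had a called difference of the tumor change between the sexes, so these counts do not show that the sexes differed.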

How the data were processed

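The deposited values are log2 values per transcript cluster. According to the submitters' processing notes the authors made them with Affymetrix Expression Console; version, summary method and genome build are not stated there, so how background was treated is unknown. Of 41345 clusters 23521 carry 1 symbol in the platform's annotation table, 1814 several and 16010 none. Genes with several clusters (1082) were taken from the brightest.

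Groups came from the disease label and animals from the titles, which pair both tissues of 18 animals (block correlation 0.145). Where arrays are not stated to be separate animals, p-values measure the spread between these samples. limma 3.58.1 with statmod 1.5.0 in R 4.3.3 was used (lmFit, duplicateCorrelation with the animal as random block, eBayes with a trend), and was tested on simulated data. Spread was tested in the same way on absolute deviations from the group median. Permutations used scipy 1.17.1, figures matplotlib 3.10.9, and promoter alignments Biopython 1.88 in Python 3.11.15. Promoters are RefSeq's, on GRCm38.p6.

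The members, lists and tests were chosen with earlier results of these data known. Medians, ranges, change, SE and adjusted p are given for every member called higher, the 3 largest called falls of each subfamily, the largest change in a subfamily without a call, members called for spread or sex, up to 3 called regulators and electron or heme genes each way, and Nr1i3, Nr1i2, Ahr and Ppara. Others are given by count and change; those with further detail (Cyp2c54, Cyp2c29, Cyp2c70, Cyp2a4, Cyp3a11, Cyp2d10, Cyp3a16, Cyp2b13 and Cyp4a12a by sex) were picked after their values were seen. Leaving out normal liver 27 or the 4 tumors of highest x, and the read sex, were also chosen after seeing the data. Relations with Cyp4a10 were not run, since it has no cluster of its own.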

Additional observations from a re-analysis of the deposited data

Results flagged for a closer look

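Among the 9 normal livers labelled female, 42 members were examined for an array lying far from the others, which chance alone flags in about 1 of 20 groups. By Xist and the Y-linked genes normal liver 3 of this group reads as male. Normal livers 14 and 15, labelled male, read as female and were not in it. Normal liver 16 lay apart in Cyp1b1 (8.62, next 7.25), Cyp2c50 (6.56, next 9.67), Cyp2d37-ps (7.29, next 10.56), Cyp2e1 (12.35, next 13.05) and Cyp2j5 (10.18, next 11.27). Its macrophage marker mean, 11.02, was the highest of the normal livers. Normal liver 19 lay apart in Cyp2a5 (6.09, next 8.87) and Cyp4a14 (6.15, next 11.3), and its neutrophil marker mean, 10.67, was the highest of the normal livers. The part of these cells was not tested. Groups of more than 10 arrays were not examined in this way.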

How the results depend on the processing

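No called member changed sign under any alternative run. Of the 49 called members 19 kept their call in all of them, and 37 in all but the fit to arrays of animals without a pair. That fit (11 arrays per tissue, no block) gave 18 lower, 3 higher, 13 lower by at least 1 and 0 wider. Its arrays include normal liver 27 and tumors 24, 25 and 27, whose part in the lost calls was not tested. With the 18 pairs and the animal as a fixed replicate block 33 members were lower, 6 higher and 1 wider, and 10 calls were lost. Of all genes called, 66.1% were higher in the fit without pairs and 60.8% in that of the pairs. Brighter genes alone left 5 higher, since fewer genes were tested. Array weights gave 10 wider, and leaving out normal liver 27 gave 7, or 8 without tumor 9 as well; the cause was not tested. With the arrays against the gender label left out, or with the read sex, 1 member differed by sex in normal liver. Without those arrays Cyp2b13, Cyp2d26 and Cyp4b1 lost their calls. Averaging clusters lost Cyp2c55 and moved Cyp2c29, whose second cluster is dim (means of 4.97 and 5.02).

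Only changes near 0 that were not called turned sign. Cyp2r1 became -0.058 in unpaired arrays and -0.015 with quantile normalization. Cyp2t4 became -0.038 in the 18 pairs, -0.002 with a looser reading of animals, -0.004 with labelled sex as a covariate, -0.007 with centred arrays and -0.019 with array weights. Centring and quantile normalization moved the median of all genes by less than 0.1. No detection limit is given for dim members.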
